A study of Mus musculus with 16 samples.

Results

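Orm1, Lcn2, Saa3, Hp and Cp encode 5 proteins that are secreted into blood in inflammation, and their transcripts were followed here in cultured smooth muscle cells of the mouse aorta. They were chosen by name, with earlier results of these data known. The deposited table holds 20581 genes, and each of these 5 symbols matched 1 of its lines. The cells came from male-labelled C57BL/6J mice of 2 genotypes. KO mice (RBC.ARG1-KO) carry floxed Arg1 with Cre driven from the erythropoietin receptor gene, so the deletion was aimed at the red blood cell lineage and not at smooth muscle, and WT mice were their littermates. KO and WT cells in DIAM had spent 10 days in DMEM with 0.1 µM dexamethasone, a synthetic glucocorticoid, 50 µg/mL L-ascorbic acid and 1 µM insulin, and KO and WT cells in DMEM were kept with 10% fetal bovine serum. The labels do not state whether serum was kept in DIAM. Dexamethasone, ascorbic acid and insulin were given together, so their effects, and any of time or serum, cannot be told apart here. Total RNA was sequenced in 4 libraries from each of the 4 groups, 16 in all.

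The acute-phase response is the change in plasma protein production that follows infection or injury. It is best known in the liver, where interleukin-6 acts through STAT3, interleukin-1 acts through NF-kB and C/EBP factors, and glucocorticoids strengthen many of these signals. Several of these proteins are also made outside the liver, adipocytes and macrophages among the sources, and they carry or bind iron, copper, hemoglobin, lipids or small hydrophobic molecules.

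Libraries held between 37221313 and 47626242 counts. All 5 genes passed a filter of at least 1 CPM (the count scaled to library size) in at least 4 libraries, as did 14217 genes in all, but Orm1 passed only through its DIAM libraries. The first principal component of the libraries took 80.0% of the variance and the second 6.85%. Acta2, the smooth muscle actin gene, stood at 845 ± 227 CPM in KO cells in DIAM, 772 ± 167 in WT cells in DIAM, 1799 ± 541 in KO cells in DMEM and 1960 ± 247 in the WT cells kept there (mean with SD, n = 4 each, as throughout). Arg1 was near absent from the cultures of both genotypes, with 1 to 4 counts a library in KO cells in DIAM, 0 to 9 in WT cells in DIAM, 2 to 49 in KO cells in DMEM and 3 to 4 in WT cells in DMEM. It therefore does not check the genotype labels. Xist, the RNA of the inactive X chromosome, was present at 102 to 326 CPM in all 16 libraries although all are labelled male, and the highest value was that of KO replicate 2 in DMEM. The Y chromosome genes Ddx3y, Kdm5d, Uty and Eif2s3y were sought by symbol and matched no line of the deposited table. The sex of the cells was not tested further. The labels call the 4 libraries of a group biological replicates in one place and triplicates in another, so p-values measure the spread between these samples.

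Promoter sequence from RefSeq (build GRCm38.p6) was matched by symbol for Lcn2, Saa3 and Cp, 3 of the 5 genes, and not for Orm1 and Hp. The 250 bases before each start are shown because these genes answered the medium differently, and capitals mark matches to the motifs searched. The motifs were the glucocorticoid receptor hexamer AGAACA, the palindrome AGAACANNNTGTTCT, the STAT site TTCNNNGAA, the C/EBP site TTNNGNAA and the NF-kB site by its name. Both strands were searched, over each start's 300 bases (250 before and 50 after). Lcn2 lies on the minus strand at chr2:32387740-32387989, Cp on the plus strand at chr3:19956804-19957053 and Saa3 on the minus strand at chr7:46715677-46715926.
Lcn2: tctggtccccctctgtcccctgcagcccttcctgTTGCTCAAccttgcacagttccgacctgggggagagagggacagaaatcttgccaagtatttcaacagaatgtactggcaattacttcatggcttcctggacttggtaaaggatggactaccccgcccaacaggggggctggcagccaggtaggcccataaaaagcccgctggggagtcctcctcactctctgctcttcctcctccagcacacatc
Cp: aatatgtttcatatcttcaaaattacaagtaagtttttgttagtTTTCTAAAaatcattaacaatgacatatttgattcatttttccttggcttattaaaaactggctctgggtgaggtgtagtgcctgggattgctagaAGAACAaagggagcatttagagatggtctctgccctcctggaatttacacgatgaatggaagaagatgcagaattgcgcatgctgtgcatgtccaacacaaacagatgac
Saa3: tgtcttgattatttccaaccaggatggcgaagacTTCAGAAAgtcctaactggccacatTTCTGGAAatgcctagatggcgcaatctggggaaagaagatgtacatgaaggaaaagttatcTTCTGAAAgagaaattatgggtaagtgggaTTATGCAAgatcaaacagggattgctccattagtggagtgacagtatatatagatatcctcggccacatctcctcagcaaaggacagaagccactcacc
The Lcn2 sequence held 1 C/EBP match, 216 bases before the start. That of Cp held 1 hexamer, 110 bases before the start, and 1 C/EBP match, 206 bases before it. A second RefSeq start of Cp, whose sequence overlaps the one shown, had 1 C/EBP match, 70 bases before it. Saa3 held 4 C/EBP matches, 216, 191, 129 and 99 bases before its start. None of these windows held a palindrome, STAT or NF-kB match. Among 32841 windows of the same length, 19.0% held the hexamer, 40.7% the C/EBP site, 8.3% the STAT site, 8.46% the NF-kB site and 0.00913% the palindrome. A match is a run of letters and not a measured site.

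The first question was how 10 days in DIAM changed these transcripts. Orm1, Lcn2, Cp and Hp rose in cells of both genotypes, from 3.79-fold for Hp to 53.0-fold for Lcn2 in KO cells, with Orm1 near absent without DIAM, whereas Saa3 did not pass the test in either genotype. That made 4 of the 5 higher and 0 lower in KO cells, beside 29.8% of all genes tested that were called higher there and 30.8% called lower. In WT cells it was again 4 higher and 0 lower, beside 27.6% higher and 27.5% lower of all genes. Calls in either direction took 60.7% of all genes in KO cells and 55.1% in WT cells. The median log2 fold change of the 5 genes was 2.99 in KO cells and 3.06 in WT cells, beside -0.02 and -0.01 over all genes. The groups did not overlap for Orm1, Lcn2, Cp and Hp, beside 27.3% of all genes in KO cells and 24.3% in WT cells that stood wholly higher in DIAM. Orm1 passed the filter only through DIAM libraries, so its place among the genes that rose was fixed by the filter. The 5 genes were also chosen with earlier results of these data known, so the contrast with all genes is a description.

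**Figure D1:**
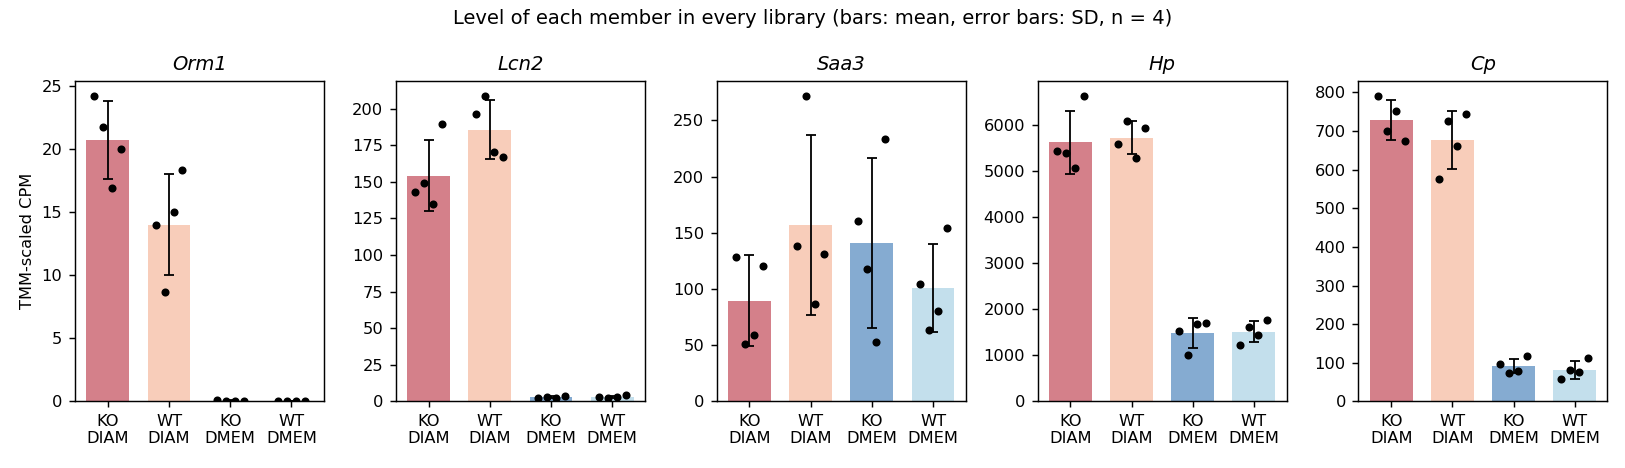
Level of each gene in every library, in TMM-scaled CPM on a linear axis of its own for each gene. Points are libraries, bars the mean of 4 libraries and error bars the SD. Orm1, Lcn2, Hp and Cp stand higher in all 8 DIAM libraries than in any DMEM library, while the 4 groups of Saa3 overlap.

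Orm1 (ENSMUSG00000039196) encodes orosomucoid, the alpha-1-acid glycoprotein, a lipocalin that binds hydrophobic drugs and hormones in plasma and is a classic glucocorticoid-responsive gene of rodent liver. It had 24.2, 21.7, 16.9 and 20.1 CPM in the KO libraries in DIAM, and 5, 1, 0 and 2 counts in the KO libraries in DMEM. WT libraries had 14.0, 8.67, 15.1 and 18.4 CPM in DIAM, and 1, 0, 3 and 0 counts in DMEM. The gene was thus at the edge of detection in all 8 DMEM libraries and clearly present in all 8 DIAM libraries. The summed count was 3220 in KO cells in DIAM against 8 in KO cells in DMEM, for which the exact Poisson 95% interval runs from 3.45 to 15.8 counts. In WT cells it was 2151 in DIAM against 4 in DMEM, with an interval of 1.09 to 10.2 counts. These intervals cover counting error only. The fitted log2 fold change was 8.60 ± 0.41 in KO cells (± SE, edgeR adjusted p = 9.10e-11) and 9.04 ± 0.45 in WT cells (adjusted p = 1.85e-10), the 11th and 7th highest of 14217 genes. With so few counts in DMEM these sizes depend on single libraries: without KO replicate 1 in DMEM the KO value was 9.54, and without WT replicate 3 in DMEM the WT value was 10.27. With limma on log2(CPM + 1) the values were 4.36 in KO cells and 3.84 in WT cells. As Orm1 passed the filter only through DIAM libraries, its place among the genes that rose was fixed by the filter. Its calls and ranks are therefore given as a description. Reads shared with near-identical Orm genes could not be told apart from Orm1 here.

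Lcn2 (ENSMUSG00000026822) encodes lipocalin 2, which binds the siderophores that bacteria use to take up iron and is stored in neutrophil granules. It stood at 143, 149, 135 and 189 CPM in KO cells in DIAM and at 2.41, 3.21, 2.20 and 3.81 CPM in KO cells in DMEM. WT cells had 197, 209, 170 and 167 CPM in DIAM and 2.82, 2.32, 3.07 and 4.38 CPM in DMEM. The lowest DIAM library was above the highest DMEM library by a wide margin in both genotypes. Lcn2 was 53.0-fold higher in DIAM in KO cells (log2 fold change 5.73 ± 0.20, edgeR adjusted p = 4.56e-12) and 58.9-fold higher in WT cells (5.88 ± 0.20, adjusted p = 3.61e-12). By log2 fold change it ranked 57th of 14217 in KO cells and 44th in WT cells. S100a8, a defining neutrophil gene, stood at 0 to 8 counts in every library. Of 10 neutrophil markers listed 1 passed the filter, and it was called higher in DIAM in both genotypes. Its log2 fold change was 1.14 in KO cells and 1.30 in WT cells.

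Cp (ENSMUSG00000003617) encodes ceruloplasmin, the copper-carrying ferroxidase of plasma, which oxidizes iron so that transferrin can take it up. KO cells had 790, 700, 751 and 674 CPM in DIAM and 97.5, 74.0, 79.3 and 116 CPM in DMEM. WT cells had 577, 726, 660 and 744 CPM in DIAM and 56.9, 80.7, 75.5 and 112 CPM in DMEM. Every DIAM library stood above every DMEM library in both genotypes. The increase was 7.94-fold in KO cells (log2 fold change 2.99 ± 0.18, edgeR adjusted p = 2.05e-09) and 8.33-fold in WT cells (3.06 ± 0.18, adjusted p = 2.00e-09).

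Hp (ENSMUSG00000031722) encodes haptoglobin, which captures hemoglobin released from broken red cells. It had 5436, 5392, 5076 and 6633 CPM in KO cells in DIAM and 1540, 1019, 1677 and 1709 CPM in KO cells in DMEM. WT cells had 5590, 6106, 5292 and 5933 CPM in DIAM and 1237, 1609, 1438 and 1773 CPM in DMEM. It was present at 1019 CPM or more in every DMEM library as well, and every DIAM library stood higher. Hp was 3.79-fold higher in DIAM in KO cells (log2 fold change 1.92 ± 0.15, edgeR adjusted p = 1.69e-08) and 3.78-fold higher in WT cells (1.92 ± 0.15, adjusted p = 2.18e-08).

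Saa3 (ENSMUSG00000040026) encodes a serum amyloid A, an apolipoprotein of high-density lipoprotein that in mice is made mainly outside the liver. It had 128, 50.8, 59.1 and 120 CPM in KO cells in DIAM and 160, 118, 53.1 and 233 CPM in KO cells in DMEM. WT cells had 138, 271, 86.4 and 131 CPM in DIAM and 105, 63.9, 80.6 and 154 CPM in DMEM. All 4 groups overlapped, and within a group the highest library was 2.41 to 4.39 times the lowest. The log2 fold change was -0.66 ± 0.46 in KO cells (95% interval -1.66 to 0.35, edgeR adjusted p = 0.235) and 0.64 ± 0.46 in WT cells (95% interval -0.36 to 1.64, adjusted p = 0.257). A level 2-fold lower in DIAM in KO cells and a level 2-fold higher in DIAM in WT cells both lie within these intervals. Any reads shared with other Saa genes could not be told apart from Saa3 here.

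**Figure D2:**
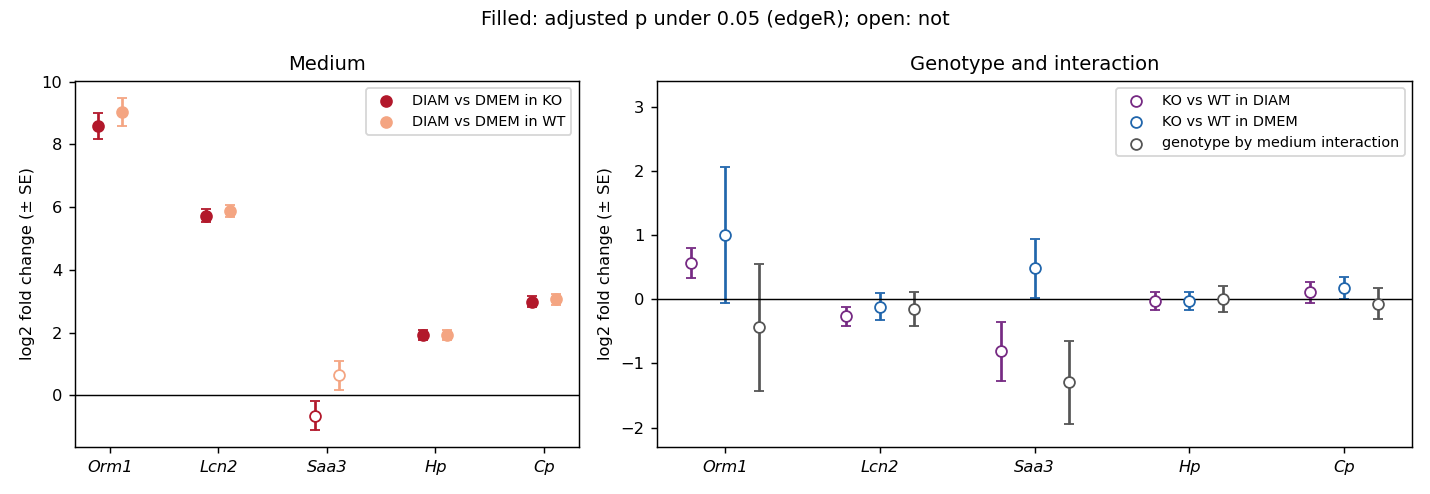
Log2 fold change of each gene with its approximate SE, for the medium (left) and for genotype and the genotype by medium interaction (right). Filled points have an edgeR adjusted p under 0.05. Only medium comparisons hold filled points, for Orm1, Lcn2, Hp and Cp.

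The second question was whether KO and WT cells differed in these transcripts. In DIAM 0 of the 5 genes were called by edgeR, where 8.38% of all genes were (3.43% higher and 4.95% lower in KO cells), and 1 of the 5, Orm1, had an unadjusted p under 0.05. The libraries of both genotypes overlapped for all 5, whereas 16.4% of all genes had genotypes that did not overlap. The background itself depends on the test and on the libraries fitted: of all genes, 1191 were called in the fit over 4 groups, 1873 with DESeq2, 1810 in the authors' deposited table and 0 of 13554 in an edgeR fit of the 8 DIAM libraries alone. Orm1 averaged 20.7 ± 3.07 CPM in KO cells and 14.0 ± 4.02 CPM in WT cells, and 3 of the 4 KO libraries stood above the highest WT library. Its log2 fold change was 0.56 ± 0.23 (95% interval 0.07 to 1.06, adjusted p = 0.134). This call depends on the test, because Orm1 was called with limma on log2(CPM + 1), at an adjusted p of 0.0387, and in the authors' deposited table, at 0.0466, and leaving out single libraries gave edgeR adjusted p-values from 0.0743 to 0.346. Summed adipocyte markers ran from 2299 to 3389 CPM in the same KO libraries and from 1574 to 2473 CPM in the same WT libraries, with overlap. Of the 7 tested adipocyte markers, 1 was called higher and 0 lower in KO cells in the fit over 4 groups, with a median log2 fold change of 0.57. Summed Schwann cell markers ran from 16.8 to 70.5 CPM in those KO libraries and from 117 to 292 CPM in those WT libraries, with no overlap, although 0 of the 5 tested Schwann markers were called between genotypes. The part of either list in the differences between genotypes was not tested, and relations within groups are given below. Lcn2 averaged 154 ± 24.2 CPM in KO cells and 186 ± 20.2 CPM in WT cells, a log2 fold change of -0.27 ± 0.15 (95% interval -0.60 to 0.07, adjusted p = 0.298). For Saa3 the means were 89.6 ± 40.3 CPM in KO cells and 157 ± 79.8 CPM in WT cells, with a log2 fold change of -0.81 ± 0.46 (95% interval -1.82 to 0.20, adjusted p = 0.296). Cp was at 729 ± 51.9 CPM in KO cells and 677 ± 75.8 CPM in WT cells, and its 95% interval ran from -0.26 to 0.48 on the log2 scale. Hp was at 5634 ± 685 CPM in KO cells and 5730 ± 362 CPM in WT cells, with an interval of -0.34 to 0.29.

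In DMEM 0 of the 5 genes were called between KO and WT cells by edgeR, beside 0% of all genes, and 0 of the 5 had an unadjusted p under 0.05, as against 438 of all 14217 genes. DESeq2 called 1 gene of all, and 0 of the 5. Lcn2 averaged 2.91 ± 0.742 CPM in KO cells and 3.15 ± 0.877 CPM in WT cells. Saa3 averaged 141 ± 75.7 CPM in KO cells and 101 ± 39.2 CPM in WT cells, and Hp 1486 ± 320 CPM in KO cells and 1514 ± 230 CPM in WT cells. Cp was at 91.8 ± 19.2 CPM in KO cells and 81.2 ± 22.8 CPM in WT cells. Genotypes overlapped for all 5, and 1.6% of all genes had genotypes that did not overlap.

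The third question was whether the response to DIAM depended on genotype. The interaction term was called for 0 of the 5 genes and for 0% of all genes by edgeR, with 0 of the 5 and 2255 of all genes at an unadjusted p under 0.05. DESeq2 called 225 of all genes for this term, and 0 of the 5. Hp and Cp had interaction terms of 0.00 ± 0.20 and -0.07 ± 0.24 on the log2 scale, with 95% intervals of -0.44 to 0.45 for Hp and -0.60 to 0.46 for Cp. Lcn2 had -0.15 ± 0.26. Saa3 had the term of smallest p, -1.29 ± 0.65 (95% interval -2.71 to 0.12, unadjusted p = 0.0666, adjusted p = 0.349): its mean was lower in DIAM than in DMEM in KO cells and higher in DIAM than in DMEM in WT cells, neither past the test. For Orm1 the term was -0.44 ± 0.99, and its sign turned with limma at both pseudocounts and without KO replicate 1 in DMEM (0.51).

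In order of level, Lcn2 and Hp ran WT in DIAM, KO in DIAM, WT in DMEM and KO in DMEM, and Orm1 and Cp ran KO in DIAM, WT in DIAM, KO in DMEM and WT in DMEM. For each of these genes neighbours in the same medium did not pass the test, while the media did within each genotype. The order of Saa3 was WT in DIAM, KO in DMEM, WT in DMEM and KO in DIAM, and none of its comparisons passed the test.

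Lists of related genes set these responses in context. Of 10 family relatives of the 5 genes, 3 passed the filter, and 2 rose and 0 fell in DIAM in KO cells, while 1 rose and 1 fell in WT cells. Calls in either direction thus took 2 of 3 in each genotype, near the 60.7% of all genes in KO cells and 55.1% in WT cells. Apod, another lipocalin, averaged 85.2 ± 14.2 CPM in KO cells in DIAM against 8.26 ± 2.64 in KO cells in DMEM, and 130 ± 36.5 in WT cells in DIAM against 8.23 ± 2.19 in WT cells in DMEM. Both increases passed the test (log2 fold change 3.37 ± 0.26 in KO cells and 3.97 ± 0.27 in WT cells, edgeR adjusted p = 4.53e-08 and 1.12e-08). Heph, the membrane-bound ferroxidase related to ceruloplasmin, went the other way from Cp in WT cells, with 55.6 ± 11.4 CPM in DIAM against 92.8 ± 12.4 in DMEM (-0.74 ± 0.16, adjusted p = 0.00114). In KO cells Heph was at 78.5 ± 10.6 CPM in DIAM and 87.9 ± 16 in DMEM, short of the test (adjusted p = 0.393). Rbp4, the plasma carrier of retinol, passed in KO cells, with 11.3 ± 3.61 CPM in DIAM against 4.49 ± 2.16 in DMEM (1.33 ± 0.36, adjusted p = 0.00443). In WT cells it was at 6.87 ± 1.96 CPM in DIAM and 4.74 ± 1.57 in DMEM (adjusted p = 0.217). Saa1, an acute-phase serum amyloid A of the liver, stayed below the filter, with 1 to 4 counts in KO cells in DIAM, 7 to 18 in WT cells in DIAM, 0 to 7 in KO cells in DMEM and 0 to 2 in WT cells in DMEM. Orm2, Orm3 and Saa2 matched no line of the deposited table by symbol, so their levels are not known here.

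Of 28 other acute-phase genes, 19 had a line in the deposited table, and all 19 were tested. The rest, among them Crp, Apcs, Hamp, Fga, Fgb and Fgg, had no line, so these liver proteins could not be assessed. Of the 19, 14 rose and 3 fell in KO cells while 15 rose and 1 fell in WT cells. The shares over all genes were 29.8% higher and 30.8% lower in KO cells, and 27.6% higher and 27.5% lower in WT cells. The list's median log2 fold change was 1.82 in KO cells and 2.31 in WT cells. Serpina3m, A2m and Hpx stood below 1 CPM in every DMEM library and passed the filter only through DIAM libraries, so their place among the genes that rose was fixed by the filter. Itih4, with medians of 0.53 CPM in KO cells and 0.38 in WT cells in DMEM, also needed DIAM libraries to pass, so the same holds for it. Itih3 went the other way, with at most 0.52 CPM in KO cells in DIAM and 0.97 in WT cells there. Itih3 passed only through DMEM libraries, so its direction was fixed by the filter. The counts of this list include these genes. Serpina3n, a secreted inhibitor of serine proteases, ran from 5201 to 7603 CPM over KO libraries in DIAM against 141 to 278 in DMEM, and from 7891 to 12385 CPM over WT libraries in DIAM against 143 to 213 in DMEM. Its relative Serpina3m had 5895 to 8831 counts in KO libraries in DIAM against 0 to 2 in DMEM, and 9167 to 18520 counts in WT libraries in DIAM against 1 to 6 in DMEM. Reads of these closely related serpin genes may be split among copies. Lrg1, a secreted leucine-rich glycoprotein, stood at 151 ± 21.5 CPM in KO cells in DIAM against 11.5 ± 1.32 in DMEM, and at 220 ± 37.9 in WT cells in DIAM against 11.7 ± 2.43 in DMEM. The metallothionein Mt1 and complement factor B (Cfb) also rose in both genotypes, Mt1 by 3.53-fold in KO cells and 4.97-fold in WT cells and Cfb by 3.51-fold in KO cells and 4.26-fold in WT cells. Between genotypes in DIAM, 0 of the 19 were higher and 4 were lower in KO cells, beside 3.43% higher and 4.95% lower of all genes. These were Serpina3m (log2 fold change -0.78 ± 0.19, edgeR adjusted p = 0.0252), Lrg1 (-0.54 ± 0.14, adjusted p = 0.0341), Mt1 (-0.44 ± 0.12, adjusted p = 0.0343) and Serpina3g (-0.89 ± 0.24, adjusted p = 0.0348), the last named after its values were seen. Like all calls between genotypes in DIAM, those of this list and of the next lists were made in the fit over 4 groups and not in the fit of the 8 DIAM libraries alone.

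**Figure D3:**
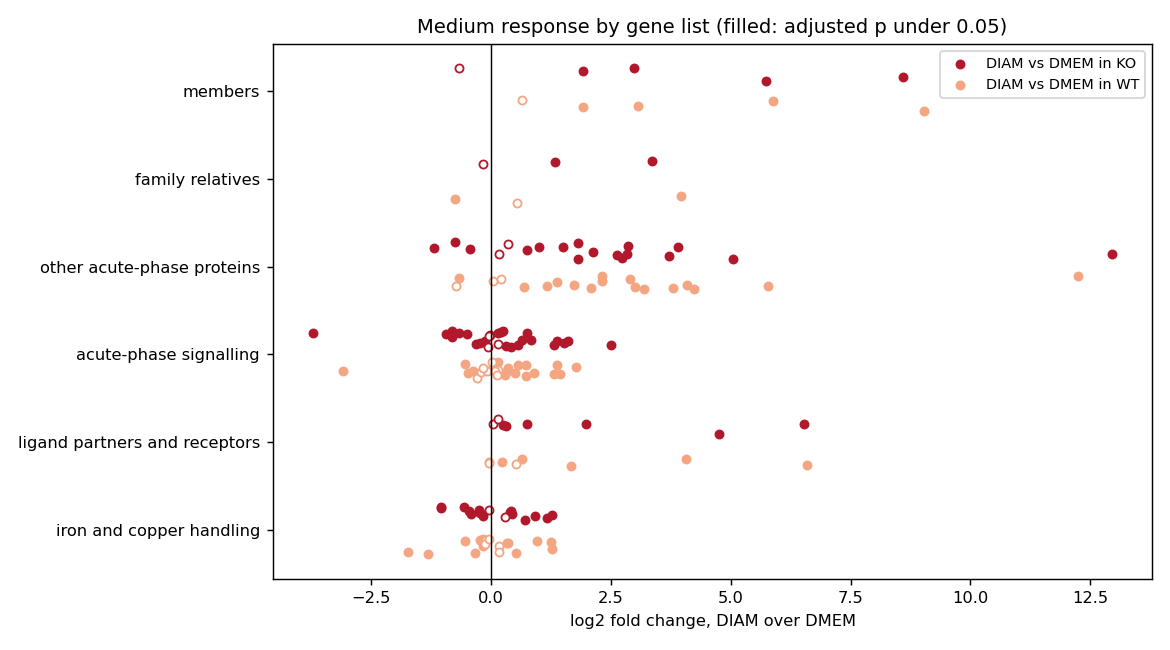
Log2 fold change, DIAM over DMEM, of every tested gene in the 5 acute-phase genes (top row, members) and in each list of related genes. Each point is a gene, KO above WT in each row, filled where the edgeR adjusted p was under 0.05. The other acute-phase genes lie mostly above 0, and the iron and copper genes lie on both sides of 0.

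Of 33 genes of acute-phase signalling, 27 were tested. In DIAM 14 rose and 9 fell in KO cells, and 14 rose and 4 fell in WT cells, with medians of 0.14 in each. Of all genes, 29.8% were higher and 30.8% lower in KO cells and 27.6% higher and 27.5% lower in WT cells, so the share that fell in KO cells was near the background. Il6, the cytokine that drives the hepatic response, fell to 1.48 ± 0.214 CPM in KO cells in DIAM, against 19.5 ± 3.16 in DMEM (log2 fold change -3.72 ± 0.18, edgeR adjusted p = 8.67e-11). In WT cells it was 2.30 ± 0.177 CPM in DIAM against 19.6 ± 4.84 in DMEM (-3.09 ± 0.17, adjusted p = 4.83e-10). Orm1, Lcn2, Hp and Cp were high in the medium in which Il6 RNA was low. The part of interleukin-6 in their levels was not tested. Receptor genes went different ways. Il6ra, for interleukin-6, was 2.88-fold higher in KO cells and 2.51-fold higher in WT cells, and Il1r1, for interleukin-1, was 2.61-fold higher in KO cells and 2.72-fold higher in WT cells. Its partner Il1rap was 1.68-fold higher in KO cells and 1.65-fold higher in WT cells. Il6st, the shared signalling chain of interleukin-6 receptors, averaged 913 CPM in KO cells in DIAM against 1069 in DMEM (-0.23 ± 0.08, adjusted p = 0.0287), and 1105 in WT cells in DIAM against 1094 in DMEM (adjusted p = 0.898). Tlr2, a receptor for bacterial lipoproteins, fell to 9.36 CPM in KO cells in DIAM, against 13.3 in DMEM (adjusted p = 0.000212), and to 9.42 in WT cells in DIAM, against 12.3 in DMEM (adjusted p = 0.00256). Il6st and Tlr2 were named after their values were seen. Nfkbia, the NF-kB inhibitor that glucocorticoids induce, was 3.05-fold higher in KO cells and 2.59-fold higher in WT cells. Nr3c1, the glucocorticoid receptor gene, fell, with log2 fold changes of -0.31 ± 0.08 in KO cells and -0.54 ± 0.08 in WT cells. Of the C/EBP genes, Cebpd rose (0.83 ± 0.08 in KO cells and 0.73 ± 0.08 in WT cells) while Cebpb did not pass the test (-0.02 ± 0.06 in KO cells and 0.00 ± 0.06 in WT cells). Stat3 rose by 0.14 ± 0.06 in each genotype, with adjusted p-values of 0.0425 in KO cells and 0.0493 in WT cells. Between genotypes in DIAM, Nfkbia was higher in KO cells (0.32 ± 0.08, adjusted p = 0.0309). Lif and Socs3, named after their values were seen, were lower in KO cells (-0.65 ± 0.19, adjusted p = 0.0476, and -0.68 ± 0.16, adjusted p = 0.0216).

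Of 16 genes for receptors and partners of the 5 proteins, 8 were tested, and 6 rose in KO cells and 5 in WT cells, with 0 lower, beside 29.8% higher of all genes in KO cells and 27.6% in WT cells. Cd163, the scavenger receptor that takes up haptoglobin bound to hemoglobin, averaged 25.3 ± 3.34 CPM in KO cells in DIAM against 0.267 ± 0.162 in DMEM, and 28.4 ± 6.27 in WT cells in DIAM against 0.299 ± 0.209 in DMEM. Its summed count was 3921 in KO cells in DIAM against 43 in DMEM, and 4389 in WT cells in DIAM against 49 in DMEM. It was below 1 CPM in every DMEM library and passed the filter only through DIAM libraries, so its call is given as a description. Cd163 is a gene of macrophages and is inducible by glucocorticoids. All 10 macrophage markers listed were measured, and their summed level was 1310 to 1727 CPM in KO cells in DIAM, 1044 to 1821 in WT cells in DIAM, 1222 to 2631 in KO cells in DMEM and 920 to 1983 in WT cells in DMEM, ranges that overlapped. Single macrophage markers did move with the medium: 0 of the 10 rose and 4 fell in KO cells, and 3 rose and 1 fell in WT cells. Their part in the Cd163 values was not tested. Cd36, a scavenger receptor that binds serum amyloid A, was 26.9-fold higher in KO cells and 16.8-fold higher in WT cells. Lrp2, the megalin receptor that takes up lipocalins, averaged 83 ± 48.4 CPM in KO cells in DIAM against 20.9 ± 16.7 in DMEM (adjusted p = 0.0144), and 43 ± 23.6 in WT cells in DIAM against 13.4 ± 4.99 in DMEM (adjusted p = 0.0386). Slc22a17, the other lipocalin 2 receptor, did not pass, at 12.2 ± 0.945 CPM in KO cells in DIAM and 11 ± 2.44 in DMEM, and 9.89 ± 0.955 in WT cells in DIAM and 10.1 ± 1.63 in DMEM. Scarb1 and Ager rose by at most 1.68-fold.

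Of 19 iron and copper genes, 18 were tested, and 7 rose and 9 fell in KO cells while 6 rose and 7 fell in WT cells. Over all genes the shares were 29.8% higher and 30.8% lower in KO cells and 27.6% higher and 27.5% lower in WT cells. The list's median log2 fold change was -0.11 in KO cells and -0.07 in WT cells. Fth1, the ferritin heavy chain that stores iron, was 2.40-fold higher in KO cells and 2.38-fold higher in WT cells. Hmox1, the heme oxygenase that frees iron from heme, was 1.9-fold higher in KO cells and 1.95-fold higher in WT cells. Slc31a2, a copper transporter, was 2.27-fold higher in KO cells and 2.41-fold higher in WT cells, and Atp7a, the copper pump of the secretory route, was 1.36-fold higher in KO cells and 1.43-fold higher in WT cells. Sod3, the secreted copper- and zinc-dependent superoxide dismutase, fell to 519 ± 56.2 CPM in KO cells in DIAM, against 1062 ± 177 in DMEM, and to 483 ± 45.4 in WT cells in DIAM, against 1200 ± 25.1 in DMEM. Slc40a1, the iron exporter ferroportin that works with ceruloplasmin, fell to 3.57 ± 1.5 CPM in KO cells in DIAM, against 7.39 ± 1.21 in DMEM, and to 1.88 ± 0.473 in WT cells in DIAM, against 6.22 ± 0.952 in DMEM. Cp thus rose in both genotypes while Slc40a1 fell in both. Between genotypes in DIAM, Slc40a1 was higher in KO cells (0.92 ± 0.26, edgeR adjusted p = 0.0409), with overlapping libraries, and Lox, a copper-dependent collagen cross-linking enzyme named after its values were seen, was lower (-0.29 ± 0.07, adjusted p = 0.0248).

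Markers of other cell types moved with the medium. All 7 measured adipocyte markers rose in both genotypes, Retn and Cidec having passed the filter only through DIAM libraries, and their summed level was 2299 to 3389 CPM in KO cells in DIAM, 1574 to 2473 in WT cells in DIAM, 67.0 to 117 in KO cells in DMEM and 88.8 to 111 in WT cells in DMEM. The summed smooth muscle markers were 1139 to 2094 CPM in KO cells in DIAM, 1048 to 1713 in WT cells in DIAM, 2292 to 3995 in KO cells in DMEM and 2927 to 3779 in WT cells in DMEM. Of the 8 smooth muscle markers 2 rose and 4 fell in KO cells, and 1 rose and 4 fell in WT cells. Summed fibroblast markers were 1703 to 1976 CPM in KO cells in DIAM against 1177 to 1426 in DMEM, and 1789 to 2489 in WT cells in DIAM against 1143 to 1399 in DMEM. Endothelial markers summed to 79.0 to 128 CPM in KO cells in DIAM against 38.8 to 63.1 in DMEM, and to 91.4 to 129 in WT cells in DIAM against 37.8 to 59.5 in DMEM. For Schwann markers the sums were 16.8 to 70.5 CPM in KO cells in DIAM against 13.9 to 53.4 in DMEM, and 117 to 292 in WT cells in DIAM against 17.0 to 44.6 in DMEM. Mesothelial markers ran from 187 to 613 CPM in KO cells in DIAM against 53.3 to 277 in DMEM, and from 110 to 287 in WT cells in DIAM against 70.0 to 144 in DMEM. The media thus did not overlap for fibroblast and endothelial sums in either genotype and for Schwann sums in WT cells, and overlapped for mesothelial sums. In bulk libraries, a change in the number of cells of a type and a change in RNA per cell cannot be told apart. The part of these shifts in the rise of Orm1, Lcn2, Hp and Cp was not tested. Of 9 hepatocyte markers 1 was in the table, Ahsg, at 2.51 to 4.45 CPM with overlapping groups. Of 10 neutrophil markers 3 were in the table, and their sum was at most 2.82 CPM in any library. The sum was 1.31 to 2.51 CPM in KO cells in DIAM against 0.73 to 1.45 in DMEM, with overlap. In WT cells it was 1.75 to 2.82 CPM in DIAM against 0.68 to 1.68 in DMEM, with no overlap. The part of this shift in the rise of Lcn2 was not tested.

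Variation within groups was examined last, on deviations of log2(CPM + 1) from the group mean over all 16 libraries. None of the 10 pairs of the 5 genes passed adjustment over the pairs in a permutation test within groups (2-sided, 100000 resamples). The closest was Lcn2 with Saa3, with Pearson's r of 0.71 (p = 0.00637, adjusted p = 0.0637) and Spearman's rho of 0.70 (p = 0.00827, adjusted p = 0.0827), and r was 0.60 without the 2 libraries farthest from the median of Lcn2. Hp and Cp followed, with r of 0.62 (p = 0.0429, adjusted p = 0.215) and rho of 0.45 (p = 0.137, adjusted p = 0.471), and r fell to 0.38 without the 2 farthest libraries, so this relation rests on those libraries.

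The same permutation test was run for each gene against 9 summed marker lists and Xist, 50 relations in all, which were added after the values had been seen. Lcn2 was higher where summed smooth muscle markers were lower (r = -0.81, p = 0.00105, adjusted p = 0.0471; rho = -0.76, p = 0.00423, adjusted p = 0.0705), and r was -0.79 without the 2 farthest libraries. It was also higher where fibroblast markers were higher (r = 0.71, p = 0.00377, adjusted p = 0.0471; rho = 0.69, p = 0.0107, adjusted p = 0.107), with r of 0.65 without the 2 farthest. Saa3 was higher where the sparse neutrophil markers were higher (r = 0.74, p = 0.0031, adjusted p = 0.0471; rho = 0.75, p = 0.00304, adjusted p = 0.0705; r = 0.67 without the 2 farthest). Orm1 was higher where adipocyte markers were higher (r = 0.70, p = 0.00334, adjusted p = 0.0471; rho = 0.73, p = 0.00329, adjusted p = 0.0705; r = 0.60 without the 2 farthest), with Orm1 near 0 CPM in all DMEM libraries. Orm1 with Schwann markers did not pass (r = -0.60, p = 0.00739, adjusted p = 0.0739; rho = -0.64, p = 0.0137, adjusted p = 0.115; r = -0.61 without the 2 farthest). None of the Spearman values passed the adjustment.

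**Figure D4:**
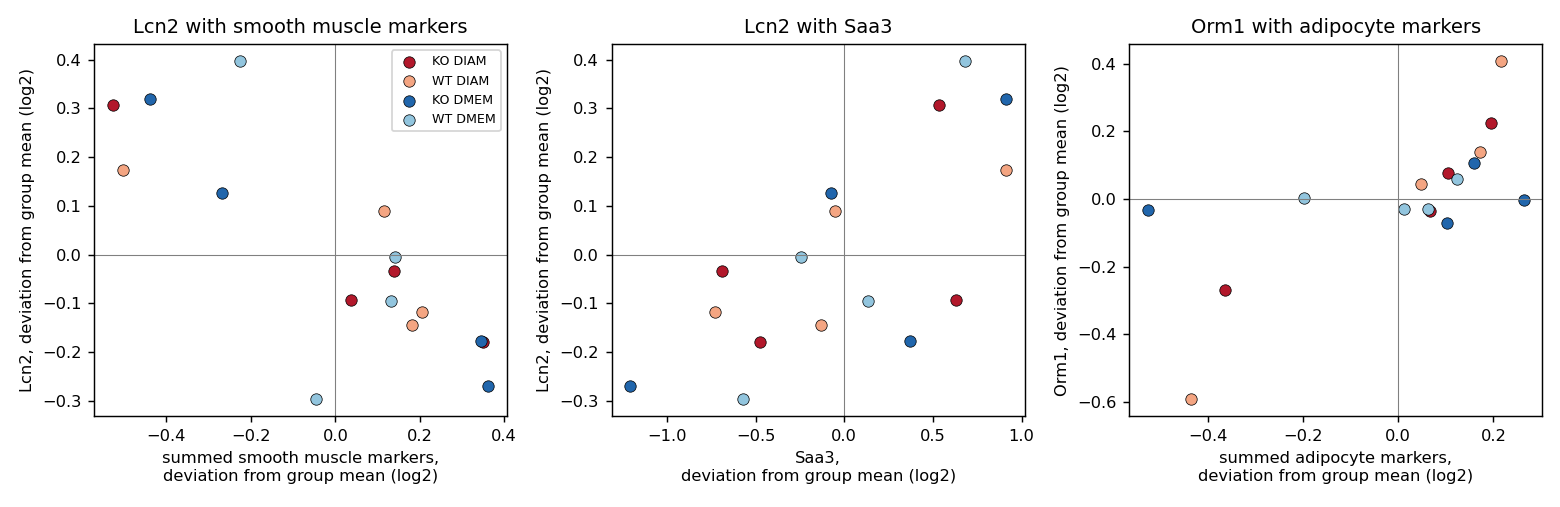
Deviation of each library from its group mean on the log2(CPM + 1) scale. From left to right, Lcn2 against summed smooth muscle markers, Lcn2 against Saa3 and Orm1 against summed adipocyte markers; colours give the 4 groups. Lcn2 runs down with smooth muscle markers (r = -0.81) and up with Saa3 (r = 0.71), and Orm1 runs up with adipocyte markers (r = 0.70), with its DMEM libraries near 0.

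As a description, the genes whose deviations were most like each of the 5 were sought among 10590 genes at a mean of at least 5 CPM. The most alike were Dlat (r = 0.98), Atl2 (0.96) and Gpam (0.95) for Orm1, and Zfp397 (0.92), Msh3 (0.90) and Prg4 (0.89) for Lcn2. For Saa3 they were Fdxr (0.91), Nfkbie (0.89) and Shroom2 (0.89). For Hp they were Pcyox1 (0.91), Gja1 (0.84) and Ncbp3 (0.83), and for Cp they were Clu (0.94), Septin4 (0.90) and Golph3l (0.88). Clu, which encodes the secreted chaperone clusterin, was the closest to Cp. These values are over 16 libraries and were picked as the highest of many. For Orm1 they rest mainly on the DIAM libraries, as its DMEM libraries held 0 to 5 counts. Spearman's rho with Orm1 was 0.87 for Dlat, 0.87 for Atl2 and 0.69 for Gpam.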

How the data were processed

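Total RNA from 16 libraries was sequenced with an unstranded TruSeq kit after depletion of ribosomal RNA, per the labels' protocols. The submitters' processing notes name Salmon 1.9.0, FastQC, R 4.4.2, DESeq2 1.46.0 and the build GRCm39. The deposited library columns are called TPM in the labels, but they sum to between 37221313 and 47626242 per library after rounding, so they were taken as the authors' estimated counts and rounded to whole numbers. The deposited mean of normalized values (a signal column of the authors) was not used in any test. The authors' deposited log2 fold changes and adjusted p-values cover 4 of the 5 comparisons and serve as an alternative.

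Genes at 1 CPM or more in at least 4 libraries were tested with edgeR 4.0.16 in R 4.3.3 (quasi-likelihood, robust, TMM scaling, 2-sided, 12 residual degrees of freedom, 1 model over 4 groups), with Benjamini-Hochberg adjustment over all genes and a threshold of 0.05. Levels are TMM-scaled CPM and are not per length, so they were not compared between genes. The SE is approximate, the log2 fold change over the root of the F statistic. The edgeR procedure was also run on simulated counts, for KO against WT in DIAM only. That run did not cover the medium comparisons, the interaction or genes near 0 in a group, as Orm1 was in DMEM. The 5 genes and the lists were chosen with earlier results of these data known. From each list up to 5 genes of smallest p in WT cells were named, together with Nr3c1, Il6, Cebpb, Cebpd, Stat3, Slc22a17 and Slc40a1 and any receptors. Alternatives were limma 3.58.1, DESeq2 1.42.0, other filters, other scaling, a replicate block, fits of only the groups compared and leaving out each library. Protein sequences and gene coordinates of the files' build were not used here. The kit does not keep strand, so overlapping genes cannot be separated.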

Additional observations from a re-analysis of the deposited data

How the results depend on the processing

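The 4 calls of Orm1, Lcn2, Hp and Cp in each medium comparison held under all alternatives run, and without each library in turn. The authors' deposited table gave no value used here for the medium in KO cells. The count of the 5 genes called between KO and WT cells in DIAM was 0 with edgeR and 1 with limma on log2(CPM + 1) and in the authors' deposited table, in each case Orm1 (log2 fold change 0.56 and 0.57). Of 214 values of the 5 genes under other settings, 208 kept direction and side of the threshold. Signs turned for the interaction of Hp, 0.0023 in the edgeR fit, at -0.0095 with a filter at 5 CPM and -0.0050 with the replicate block, and for that of Orm1 at 0.32 with limma on log2(CPM + 0.1) and 0.52 on log2(CPM + 1). Orm1 and Saa3 had r of -0.19, and 0.078 with a pseudocount of 0.1. The causes were not tested.

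Leaving out a library turned the sign of 7 results, none of them called: the interaction of Cp (-0.26 to 0.066), Hp (-0.14 to 0.087), Lcn2 (-0.35 to 0.0090) and Orm1 (-1.66 to 0.51), KO against WT in DIAM for Hp (-0.11 to 0.023), and KO against WT in DMEM for Hp (-0.10 to 0.12) and Lcn2 (-0.28 to 0.081). Orm1 between genotypes in DMEM ran from 0.066 without KO replicate 1 to 2.23 without WT replicate 3.

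Over all genes, calls between KO and WT cells in DIAM numbered 1191 in the edgeR fit, 1873 with DESeq2, 1810 in the authors' deposited table, 0 with only those 2 groups, and 178 (without KO replicate 2) to 1470 (without WT replicate 4) without 1 library. They were 275 without KO replicate 1, 302 without WT replicate 1 and 317 without WT replicate 2. In DMEM the counts were 0 in the edgeR fit, 1 with DESeq2 and 2 in the authors' deposited table, and for the interaction 0, 225 and 234.

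Same-numbered libraries did not all deviate together (r of 0.01 to 0.32 between KO cells in DIAM and DMEM, -0.09 to 0.27 for WT cells), and 2 of 4 KO and 3 of 4 WT numbers matched best with their own. The replicate block changed no call of the 5 genes (4, 4, 0, 0 and 0 called). The interaction was not run on only 2 groups, and there Orm1 in DMEM was below the filter. Depth limits Orm1 in DMEM, where libraries held 0 to 5 counts.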
